A study of Mus musculus with 2 samples.

Results

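The 38 genes described here encode the machinery that copies DNA in S phase and the factors that act beside it. They were chosen by symbol from a fixed list of names and not by a cut on their measured values, though with earlier results of these data known. All were found in both deposited matrices among 28692 genes. All 38 reached a mean of at least 10 CPM (counts of UMIs per 1000000 UMIs, where a UMI is a tag that marks one captured RNA molecule), a level that 6967 genes reached. The cells came from tumours of MC38, a mouse colon carcinoma line, from mice of the strain C57BL/6 albino. Tumour pieces of 40 to 100 µm were grown in collagen gel of 2.8 mg/mL on a microfluidic chip, and on day 6 of treatment they were digested with collagenase and trypsin. Tumour cells were sorted by flow cytometry and sequenced with the 10x Chromium 3′ kit. One group received a control IgG (clone 2A3, 10 µg/mL) and the other an antibody against PD-1 (aPD-1, clone RMP1-14, 10 µg/mL), a receptor that restrains T cells. Each group is 1 library, neither the number of mice nor the sort markers are stated in the sources used here, and treatment cannot be told apart from sorting, loading and cell calling.

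Cells of at least 5000 UMIs with at most 10% of UMIs from mitochondrial (mt-) genes were kept, 2198 in the IgG and 3356 in the aPD-1 library, with medians of 20663 and 16577 UMIs. The libraries shared 8 of the kept barcodes. The aPD-1 matrix lists every possible barcode and the IgG matrix only called cells, so RNA outside cells can be read in the aPD-1 library only. The summed macrophage markers stood at 30.9 CPM in IgG against 5.42 CPM in aPD-1 cells, and the endothelial markers at 39.3 and 7.61 CPM. The T and NK cell markers stood at 1.36 and 1.48 CPM, with Cd3e and Ncr1 at 0 in both libraries. The fibroblast markers, of which 6 of 8 reached 10 CPM, summed to 909.9 and 585 CPM. The epithelial markers summed to 0.344 and 0.114 CPM, with Krt18 at 0 in both libraries, so the defining markers of an epithelial carcinoma were near 0 in these cells. Leaving out cells with 3 or more UMIs of macrophage, T and NK or endothelial markers kept the aPD-1 over IgG ratio of all 38 genes inside the counting intervals given below. Few cells were left out, so the sums could move little: by single type, macrophage markers reached 3 UMIs in 14 IgG and 18 aPD-1 cells, T and NK markers in 2 and 0, and endothelial markers in 30 and 7. Leaving out the 10% of cells highest in Gsn, Lbp, Dpt and Dcn moved 4 of the 38 ratios out of their intervals, and 3 log2 ratios changed sign.

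A cell copies its genome once per division by splitting the work into separate steps. In G1 the Mcm2 to Mcm7 proteins are loaded as a closed ring on replication origins with the help of Cdc6, which is called licensing, and geminin (Gmnn) blocks further loading once S phase has begun. At the start of S phase Cdc45 and the GINS complex (Gins1, Gins2) turn the ring into a running helicase, and polymerases, the sliding clamp Pcna and the enzymes that make deoxynucleotides then carry out synthesis. Many of these genes are known targets of E2F transcription factors, which are released from the Rb protein when cyclin E (Ccne1, Ccne2) activates its kinase late in G1. The early S phase program is in general known to be followed by mitotic genes that B-Myb (Mybl2), FoxM1 and the DREAM complex control through other promoter elements.

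The promoters of the genes were searched for the E2F letters TTTCCCGC, TTTCGCGC, TTTGCCGC and TTTGGCGC on both strands, in RefSeq sequence (GRCm38.p6) from 250 bases before to 50 bases after each start. Of the 38 genes, 28 had an entry, and 12 of these (42.9%) held a match in at least 1 of their promoters, against 2.60% of the 27025 genes in the table and 2 of 43 genes of a mitosis list. The 12 genes were Cdc6, Mcm3, Mcm5, Mcm6 and Mcm7 of the licensing group, Pola1 and Pold3 of the fork, Clspn and Dtl of the checkpoint group, and Uhrf1, Hells and Cdca7 of the chromatin group. The letters CCAAT, bound by NF-Y, were found in 18 of 28 genes (64.3%) against 41.1% of all genes. The letters TTTGAA, the core of the element that DREAM and B-Myb complexes bind at mitotic genes, were found in 4 of 28 genes (14.3%) against 20.2% of all genes and in 30 of 43 genes of the mitosis list. No entry was found for Mcm4, Gmnn, Gins1, Gins2, Rfc2, Exo1, Tipin, Usp1, Atad2 and Ccne2. A match is a description of the letters and not evidence of binding.

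The windows of 4 of these genes are shown, 1 or more from each of the licensing, fork and checkpoint groups, because they lie before the gene's first base in the GENCODE M21 annotation as well and overlap no other gene. They end 9 (Mcm6), 111 (Mcm5), 100 (Pola1) and 0 (Dtl) bases before the RefSeq start. Each is printed 5′ to 3′ on the gene's strand, with matches to the E2F letters on either strand in capitals and overlapping matches run together.
Mcm6, chr1:128359715-128359845, minus strand: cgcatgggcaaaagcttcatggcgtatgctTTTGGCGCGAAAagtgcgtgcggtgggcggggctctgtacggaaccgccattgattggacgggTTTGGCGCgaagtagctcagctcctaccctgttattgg
Mcm5, chr8:75109326-75109397, plus strand: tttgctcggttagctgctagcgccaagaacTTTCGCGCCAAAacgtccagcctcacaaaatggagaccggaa
Pola1, chrX:93632256-93632323, minus strand: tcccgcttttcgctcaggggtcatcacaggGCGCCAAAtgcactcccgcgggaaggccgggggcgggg
Dtl, chr1:191575545-191575582, minus strand: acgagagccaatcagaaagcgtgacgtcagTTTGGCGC
Mcm6 held 3 matches and Mcm5 held 2, and in both promoters a pair of matches on opposite strands overlapped.

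Levels were set side by side in CPM without division by transcript length, since the 3′ kit takes one tag per molecule. The 38 genes together made up 1789 CPM in IgG against 1773 CPM in aPD-1 cells. By the mean of the libraries, the highest levels were those of Nasp, a chaperone of histones on their way to new chromatin (151.3 CPM in IgG, 118.6 CPM in aPD-1), Usp1, which takes ubiquitin off the clamp Pcna (115.9 and 135.3 CPM), and Slbp, which binds the stem-loop of histone mRNA (124.4 and 111.4 CPM). The lowest by the same mean were those of the loader Cdc6 (11.7 and 10.3 CPM), the cyclin E gene Ccne2 (12.0 and 11.0 CPM) and Exo1, an exonuclease of mismatch repair (12.8 and 13.4 CPM). Nasp was the highest gene in IgG and Usp1 in aPD-1, and in IgG Hells (116.1 CPM) stood level with Usp1.

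The transcripts that encode the subunits of one ring were unequal in CPM. The proteins were not measured, and differences in capture between genes were not tested. Mcm6 was the highest Mcm gene, at 75.4 CPM in IgG against 68.5 CPM in aPD-1. Mcm5 stood at 62.9 and 57.3 CPM and Mcm3 at 59.8 and 54.6 CPM, and the counting intervals of these neighbours overlapped in each library. Mcm7 stood at 52.5 and 44.6 CPM. Mcm2 stood at 33.3 and 30.3 CPM, and Mcm4 was the lowest, at 20.1 and 19.1 CPM. The order Mcm6, Mcm5, Mcm3, Mcm7, Mcm2, Mcm4 was the same in both libraries, and every Mcm gene was higher in the IgG library.

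The remaining members are given by role. Geminin (Gmnn) stood at 86.1 CPM in IgG against 93.5 CPM in aPD-1. Among the helicase activators Gins2 was highest (60.7 and 63.4 CPM), above Gins1 (17.5 and 18.3 CPM) and Cdc45 (15.0 and 14.9 CPM). At the fork, the clamp Pcna stood at 67.7 and 52.1 CPM, and its loader subunit Rfc2 at 48.6 and 46.7 CPM. The single-strand binding protein gene Rpa2 (34.3 and 33.8 CPM), the flap nuclease gene Fen1 (23.9 and 24.6 CPM), the polymerase delta subunit gene Pold3 (20.8 and 20.3 CPM), the primase gene Prim1 (17.6 and 17.1 CPM) and the polymerase alpha gene Pola1 (14.1 and 15.2 CPM) were lower. Of the nucleotide genes, Rrm2 and Rrm1, the subunits of ribonucleotide reductase, stood at 78.4 and 35.8 CPM in IgG (in aPD-1, 70.6 and 34.0 CPM), and Tyms, thymidylate synthase, at 37.2 CPM (33.6 CPM in aPD-1). Of the chromatin genes not named yet, Cdca7 stood at 44.4 and 39.9 CPM and Chaf1b at 17.7 and 19.1 CPM. The plot of levels and ratios shows each gene in both libraries.

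**Figure D1:**
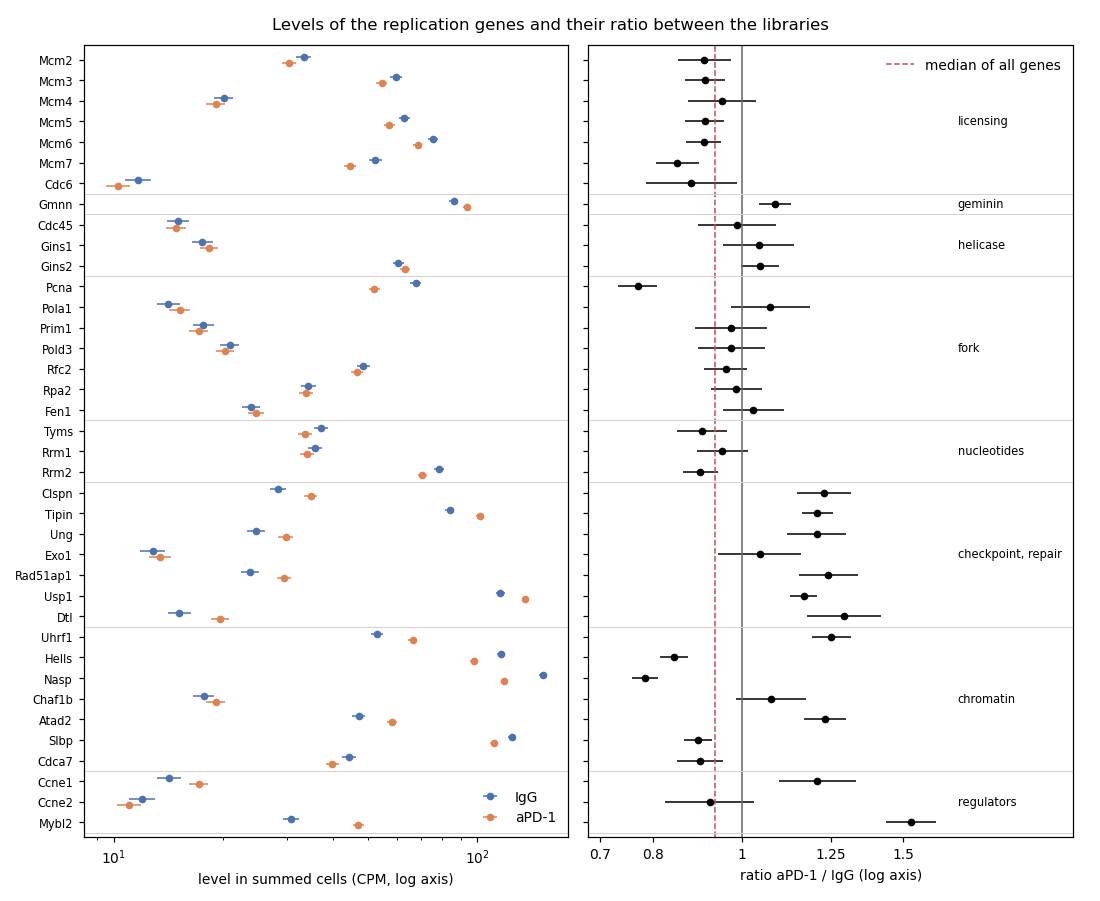
Left: level of each of the 38 genes in CPM (log axis) in the summed cells of the IgG (blue) and aPD-1 (orange) library, with exact Poisson 95% intervals. Right: ratio of aPD-1 over IgG (log axis) with exact conditional binomial 95% intervals, and the median ratio of all genes (dashed). Mybl2 lies farthest to the right at 1.53 and Pcna farthest to the left at 0.770, the licensing genes lie left of 1, and the checkpoint and repair genes lie right of 1.

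To see where in the cell cycle the genes stood high, the cells were ranked by transcripts that are not among the 38. Cells of both libraries were ordered by the share of their UMIs from 65 histone cluster genes, taken by symbol, many of which are expressed in S phase. They were split into 5 ranges of about equal size over the pooled cells. A range is a stretch of that ranking and not a cell type, and the top histone range took in 16.7% of the IgG cells and 22.2% of the aPD-1 cells. Most histone mRNAs lack a poly(A) tail, so this kit sees only part of them.

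All 38 genes were highest in the top histone range in both libraries, where 27.1% of all genes in IgG and 31.6% in aPD-1 were highest. The summed level went from 1276 CPM in the lowest to 2715 CPM in the top range of IgG and from 1261 to 2557 CPM in aPD-1. The step lay mainly between ranges 4 and 5, since ranges 2 to 4 stood between 1600.4 and 1692 CPM in IgG and between 1505 and 1682 CPM in aPD-1. At 1.5-fold with an interval above 1, 36 of 38 genes were higher in the top than in the lowest range in IgG (5.12% of all genes) and 35 in aPD-1 (4.74%), 34 of them in both, and none was lower (4.04% and 4.53% of all genes). The median fold was 2.25 in IgG and 1.95 in aPD-1, against 0.971 and 0.978 over all genes.

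The size of the step differed by gene. Clspn (claspin, which passes the signal of stalled forks to the checkpoint kinase) was 5.36-fold higher in IgG (interval 4.28 to 6.79) and 4.11-fold in aPD-1 (3.50 to 4.85). Rad51ap1, which acts in DNA repair, was 4.95-fold and 4.10-fold higher. Rrm2 was 4.28-fold and 3.39-fold higher and Tyms 4.03-fold and 3.53-fold. Among the smallest folds were those of Usp1 (1.43 in IgG, 1.65 in aPD-1), Mcm6 (1.46 and 1.34), and Cdca7, a partner of the remodeller Hells (1.5 and 1.28). In aPD-1 that of Ung, which removes uracil from DNA, was small too (1.40, against 1.76 in IgG). Median UMIs per cell were 19528.5 in the lowest and 22536 in the top range of IgG, and 14767 and 20273 in aPD-1, and the part of depth in these folds was not tested beyond the alternatives in the closing section.

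The same was done with 48 mitosis genes, none of them among the 38. The summed replication genes went through 556, 798, 1773, 2743 and 2552 CPM over mitosis ranges 1 to 5 in IgG, and through 543, 876, 1972, 2492 and 2301 CPM in aPD-1. Cells low in mitosis transcripts were thus low in replication transcripts too, and the highest level lay in range 4 of both libraries rather than in range 5. Between range 1 and range 4, 38 of 38 genes were at least 2-fold higher in IgG (4.85% of all genes) and 37 in aPD-1 (5.6%), all but Pold3, whose aPD-1 fold was 1.90 (1.56 to 2.34). None was lower at 2-fold (2.5% and 2.43% of all genes). The median fold was 5.99 in IgG and 5.80 in aPD-1.

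Some members came close to absent in the lowest mitosis range. Rad51ap1 was read 3 times in the 407 IgG cells of range 1 and 24 times in the 704 aPD-1 cells, and was 108-fold (interval 36.6 to 524) and 21.1-fold (14.0 to 33.1) higher in range 4. Clspn was read 4 and 39 times there, and was 99.4-fold (38.6 to 366) and 13.9-fold (10.1 to 19.7) higher. Rrm2 was 24.4-fold and 16.5-fold higher and Mcm5 17.1-fold and 11.5-fold. Mybl2 was 15.0-fold and 13.7-fold higher. Slbp had the smallest fold in IgG, at 2.03 (2.36 in aPD-1), and Cdc45 came next to Pold3 in aPD-1, at 2.02. In the free RNA of the aPD-1 library, read from 515790 barcodes of under 100 UMIs, the 38 genes summed to 1969 CPM, above the 543 CPM of its range 1 cells. Rad51ap1 stood there at 30.7 CPM, against 2.36 CPM in the aPD-1 cells of range 1.

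**Figure D2:**
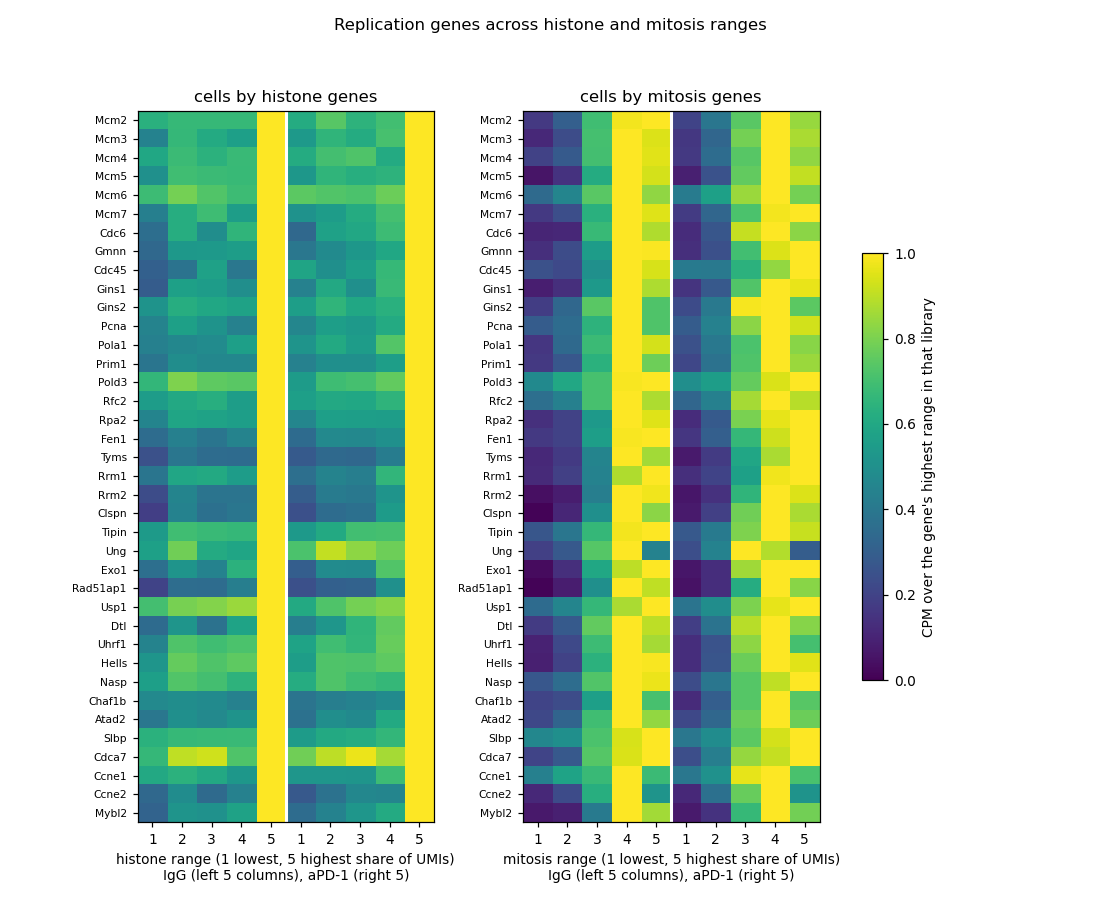
Level of each of the 38 genes (rows) in each range (columns), divided by its highest range in the same library, for cells ranked by histone genes (left) and by mitosis genes (right). The left 5 columns of each panel are IgG and the right 5 aPD-1. In the left panel each gene is highest in range 5, and in the right panel Ung, Ccne2 and Gins2 are among those lower in range 5 than in range 4.

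The genes parted between the top 2 mitosis ranges. Range 4 was the highest of 29 genes in IgG (13.5% of all genes) and 24 in aPD-1 (14.1%), and range 5 the highest of 9 and 13 (32.4% and 38.3% of all genes), with Ung highest in range 3 of aPD-1. With a difference of at least 25% of the lower value, 7 genes in IgG (2.09% of all genes) and 9 in aPD-1 (2.4%) were lower in range 5 than in range 4, 5 of them in both. None was higher by as much, where 8.34% and 11.3% of all genes were.

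The 5 genes lower in both were Ung, Ccne2, Ccne1, Chaf1b and Gins2. Ung went through 8.7, 12.8, 33.7, 45.8 and 20.3 CPM over ranges 1 to 5 in IgG and 11.7, 21.5, 48.4, 42.8 and 14.2 CPM in aPD-1. Its fold of range 5 over range 4 was 0.44 in IgG (0.38 to 0.52) and 0.33 in aPD-1 (0.28 to 0.39). Ung was therefore high in the middle of the ranking and low at both ends in each library. Ccne2 went through 2.7, 5.3, 14.5, 23.2 and 12.0 CPM in IgG and 2.1, 6.7, 14.0, 18.2 and 9.4 CPM in aPD-1. Ccne1 was 0.68-fold and 0.71-fold in range 5, Chaf1b, a subunit of the chromatin assembly factor CAF-1, 0.71-fold and 0.74-fold, and Gins2 0.72-fold and 0.75-fold. Atad2, Mcm6, Mybl2, Pcna, Prim1 and Uhrf1 passed in 1 library only. Usp1 did not go down, at 143.5 and 164.6 CPM in ranges 4 and 5 of IgG and 169.5 and 175.9 CPM in aPD-1, and geminin stood at 136.8 and 135.8 CPM in IgG and 133.4 and 141.0 CPM in aPD-1.

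The licensing genes (Mcm2 to Mcm7 and Cdc6) were then set against 10 synthesis genes (Pcna, Pola1, Prim1, Pold3, Rfc2, Rpa2, Fen1, Tyms, Rrm1 and Rrm2). Over all cells there were 0.834 licensing UMIs per synthesis UMI in IgG (0.817 to 0.852) and 0.818 in aPD-1 (0.802 to 0.834). Over the histone ranges this ratio went through 0.946, 0.895, 0.925, 0.912 and 0.674 in IgG and through 0.996, 0.918, 0.926, 0.840 and 0.688 in aPD-1. In the top over the lowest range it was 0.712 in IgG (0.661 to 0.766) and 0.691 in aPD-1 (0.648 to 0.736). Both sums were higher in the top range, licensing going from 236.9 to 446.3 CPM in IgG and from 223.8 to 383.8 CPM in aPD-1, and synthesis from 250.3 to 662.4 CPM and from 224.7 to 558.2 CPM. The lower ratio thus came with a larger step of the synthesis sum, not with fewer licensing transcripts. Within that sum the 3 nucleotide genes went from 78.8 to 294.3 CPM in IgG and from 75.6 to 245.6 CPM in aPD-1. The 7 fork genes went from 171.6 to 368.2 CPM and from 149.2 to 312.7 CPM, a fold nearer to that of licensing.

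Over the mitosis ranges the licensing ratio followed no common course. It went through 0.751, 0.864, 0.974, 0.798 and 0.809 in IgG and through 0.895, 0.993, 0.870, 0.815 and 0.730 in aPD-1. The highest value lay in range 3 of IgG and range 2 of aPD-1. In ranges 3 and 5 the intervals of the libraries did not overlap. They were 0.925 to 1.02 in IgG and 0.834 to 0.906 in aPD-1 in range 3, and 0.781 to 0.838 and 0.702 to 0.758 in range 5.

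**Figure D3:**
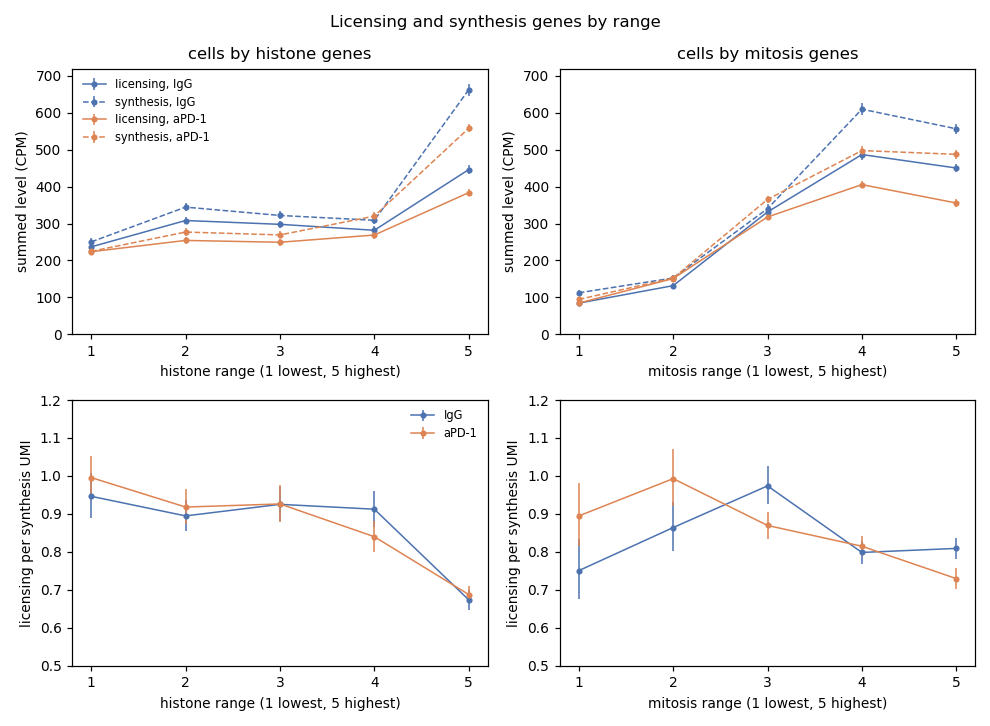
Top: summed CPM of the 7 licensing (solid) and 10 synthesis genes (dashed) by histone range (left) and mitosis range (right) in IgG (blue) and aPD-1 (orange). Bottom: licensing UMIs per synthesis UMI. Bars are exact 95% intervals for counting error; the ratio is lowest in histone range 5 of both libraries, at 0.674 and 0.688.

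Coexpression was read across single cells after thinning each to 5000 UMIs, as Pearson's r of log2(1 + UMIs). These correlations describe the cells of 1 library each, carry no p-value and share the library's total, and they are lowered by counting noise. A thinned cell held on average 1.35 licensing and 1.60 synthesis UMIs in IgG and 1.20 and 1.47 in aPD-1. The licensing and synthesis sums had an r of 0.490 over 2198 IgG cells and 0.432 over 3356 aPD-1 cells. An alternative added after the data were seen used the UMI sums without the log, with the variance expected of counting taken off. It gave an r of 0.896 and 0.901, and the part of the change of scale in this was not tested. Licensing had an r of 0.14 and 0.16 with the histone genes, synthesis 0.20 and 0.28, and with the mitosis genes the values were 0.37 and 0.34 for licensing and 0.42 and 0.41 for synthesis.

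Of the 703 pairs among the 38 genes, the median r was 0.104 in IgG and 0.083 in aPD-1, against 0.00317 and 0.00304 over all pairs of 6965 genes, and such low values of sparse counts are no finding for a single pair. Member pairs above the 99th percentile of all pairs numbered 516 (73.4%) in IgG and 438 (62.3%) in aPD-1. By the smaller r of the 2 libraries, the leading pairs were Gmnn with Rrm2 (0.254 and 0.231) and Uhrf1, which brings DNA methylation to the new strand, with Hells, a remodeller that acts in DNA methylation (0.254 and 0.229). Rrm2, the inducible subunit of ribonucleotide reductase, had the highest median r with the other members (0.23 and 0.15), and Pold3 the lowest (0.04 and 0.03). Rrm2 was also among the more abundant members and Pold3 among the less abundant, and the part of level in these medians was not tested.

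**Figure D4:**
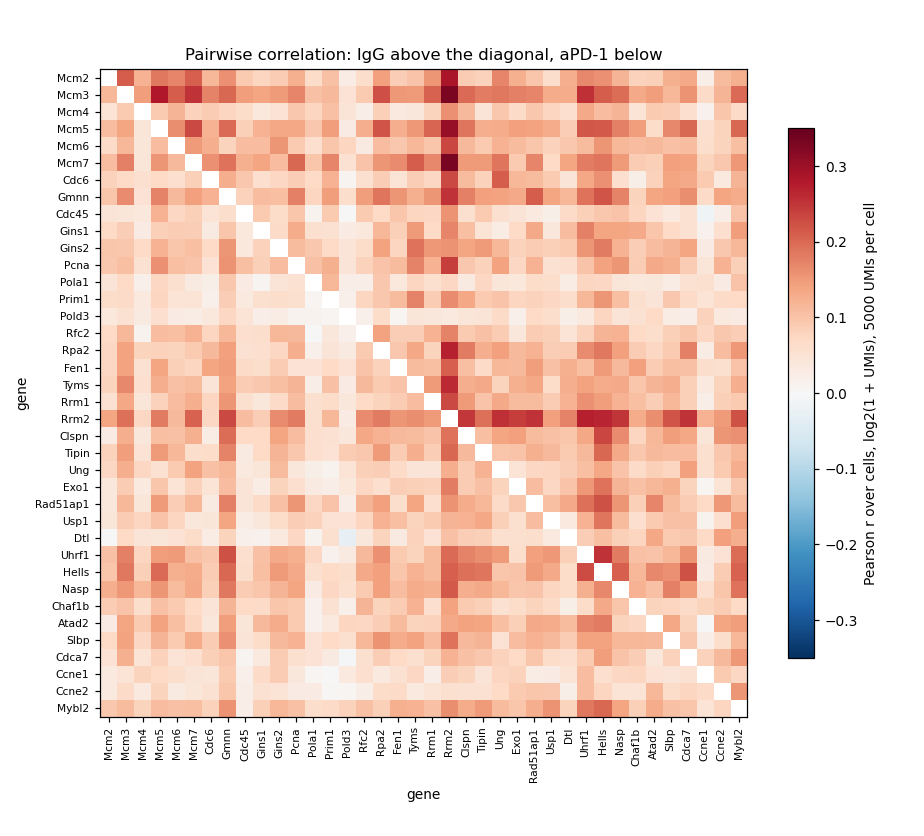
Pearson's r across cells for each pair of the 38 genes, IgG above and aPD-1 below the diagonal (colour scale from -0.35 to 0.35, cells thinned to 5000 UMIs). Nearly every pair is positive, with a range of -0.01 to 0.33 in IgG and -0.03 to 0.23 in aPD-1; the row and column of Rrm2 stand out, and those of Pold3 are pale.

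Outside the 38 genes, 6679 genes of at least 10 CPM in both libraries were ranked by the smaller of their 2 values of r. The gene first with both sums was 2810417H13Rik, the clamp-binding factor also known as Pclaf (r with licensing 0.42 in IgG and 0.36 in aPD-1, with synthesis 0.47 and 0.46). Hmgb2, a chromatin protein, came next (0.39 and 0.33 with licensing, 0.41 and 0.44 with synthesis). The other 8 of the first 10 for licensing were Ran, Hmgb1, H2afz, Tuba1b, Dut, Ranbp1, Top2a and Hspd1. Those for synthesis were Top2a, Tuba1b, H2afz, Ran, Hmgb1, Ranbp1, Hist1h2ap and Hsp90aa1. Dut, which clears dUTP, was named for licensing only and Hist1h2ap, a histone gene, for synthesis only. The median r over these genes was 0.008 with licensing and 0.006 with synthesis in both libraries.

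Set against the IgG library, the aPD-1 library held nearly the same summed level of the 38 genes (ratio 0.991, interval 0.982 to 1.0), with the roles unequal. The checkpoint and repair genes and Mybl2 lay above 1, where 32.9% of all genes lay. No licensing, fork or nucleotide gene had an interval above 1 (19.5% of all genes). An interval below 1 was found for 4 of 7 chromatin genes, near the share of all genes (50.5%). The median log2 ratio of the members was -0.03, with a range from -0.37 to 0.60, and that of all 6967 genes was -0.10, so a gene at the median of all was itself lower in aPD-1. Ratios carry no error between cultures, since there is no replicate of either treatment.

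A gene was counted as different where one library stood at least 25% above the other, with an interval that excludes 1. By that rule 3 members were higher in aPD-1 (3.9% of all genes) and 2 were lower (17.2%), so 5 of 38 differed either way (21.1%). With the median of all genes set to 0 the same count was 9 higher (8.15% of all genes) and 0 lower (9.56%), and with ribosomal protein and mt- genes out of the denominator 10 (8.6%) and 0 (9.9%). At most 5% mt- UMIs gave 7 (3.63%) and 0 (16.1%), and without the 5% of cells with most UMIs 8 were higher (4.24%) and 2 lower (19.3%). Where cells were weighted or standardised no interval was computed, so there the 25% difference alone was counted. With every cell weighted equally 5 were higher (3.89%) and 2 lower (19.9%). Standardised to one mix of histone and mitosis ranges in both libraries, 1 member was higher (3.4%) and 2 were lower (16.9%). The number depends on these choices. The direction of 25 members did not change under any alternative run for them, with 10 to 13 alternatives per gene. A change of pseudocount or gene minimum cannot change a direction, and the share of all genes that kept theirs was not computed. At 1.5-fold 1 member was higher (0.531% of all genes) and none lower (3.01%, and 3.55% either way). A ratio above 1 was found for 17 of 38 members (32.9% of all genes), an interval above 1 for 11 (19.5%) and an interval below 1 for 13 (50.5%).

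Mybl2 (chr2:163054687-163084688 in GENCODE M21 on GRCm38, plus strand), which encodes the B-Myb factor that takes part in the later mitotic program, was the member past 1.5-fold. It stood at 30.8 CPM in IgG against 47.1 CPM in aPD-1, a ratio of 1.53 (1.44 to 1.63). Its log2 ratio stayed between 0.52 and 0.70 under every alternative run for it. Dtl, which directs a ubiquitin ligase to the licensing factor Cdt1 in S phase, stood at 15.2 CPM in IgG against 19.6 CPM in aPD-1, a ratio of 1.29 (1.18 to 1.42). Uhrf1 stood at 53.0 and 66.4 CPM, a log2 ratio of 0.32 (ratio interval 1.19 to 1.32), just inside the 25% threshold. The counting intervals of the libraries did not overlap in these 3 genes. This adds nothing to the rule that picked them, since both rest on the same counts. Standardised to one mix of ranges, Dtl and Uhrf1 no longer passed the 25% threshold (log2 ratios of 0.28 and 0.27), and Uhrf1 did not pass it without the 10% of cells highest in Gsn, Lbp, Dpt and Dcn either (0.25).

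Next came Rad51ap1, at 23.7 CPM in IgG against 29.4 CPM in aPD-1 (1.24, interval 1.15 to 1.34). Atad2, a chromatin factor with a bromodomain, stood at 47.3 and 58.2 CPM (1.23, 1.17 to 1.3), and Clspn at 28.3 and 34.8 CPM (1.23, 1.15 to 1.32). These are just outside the 25% threshold. Tipin, which protects forks, stood at 84.0 and 101.5 CPM (1.21), Ung at 24.6 and 29.7 CPM (1.21), Ccne1 at 14.2 and 17.1 CPM (1.21) and Usp1 at 1.17. All 7 genes placed in the checkpoint and repair group had a ratio above 1 (32.9% of all genes), 6 with an interval above 1 (19.5%). Their sum went from 304.4 CPM in IgG to 363.7 CPM in aPD-1 (1.19, 1.17 to 1.22). This holds for the 7 genes listed, and of 21 fork genes on the pathway list given below, 7 had a ratio above 1. The direction of 6 of the 7 checkpoint and repair genes did not change under any alternative, and that of Exo1 (1.05, interval 0.941 to 1.16) did.

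At the other end stood Pcna (chr2:132249162-132253314, minus strand), at 67.7 CPM in IgG against 52.1 CPM in aPD-1, a ratio of 0.770 (0.733 to 0.808). Nasp (chr4:116601052-116627941, minus strand) stood at 151.3 and 118.6 CPM, a ratio of 0.784 (0.759 to 0.809). Pcna and Nasp were the 2 members counted as lower, and their ratios stayed below 1 under each alternative. They no longer passed the 25% threshold at 5% mt- UMIs, after centring and with the other denominator (log2 ratios from -0.31 to -0.27 for Pcna and from -0.28 to -0.25 for Nasp). Hells stood at 116.1 and 97.9 CPM (0.843, 0.813 to 0.874), Mcm7 at 52.5 and 44.6 CPM (0.85, 0.805 to 0.897), Cdc6 at 11.7 and 10.3 CPM (0.881, 0.786 to 0.988) and Slbp at 124.4 and 111.4 CPM (0.895, 0.865 to 0.927).

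The licensing sum was 315.7 CPM in IgG against 284.7 CPM in aPD-1 (0.902, interval 0.882 to 0.921). None of the 7 genes lay above 1 (32.9% of all genes), and 6 had an interval below 1 (50.5% of all genes). Set against the median ratio of all genes, 0.935, the difference of the sum is small, and 1 of the 7 genes lay above that median. Mcm4 (0.950, 0.872 to 1.04) and Mcm2 (0.910) changed direction in at least 1 alternative, and the other 5 did not. The synthesis sum was 378.5 CPM in IgG against 348.1 CPM in aPD-1 (0.920, 0.902 to 0.938). Within it Pcna was alone past the 25% threshold, and 7 of 10 genes lay above the median of all genes. Geminin, whose protein opposes licensing, was higher (1.09, 1.04 to 1.13), and the helicase activators summed to 93.2 and 96.6 CPM (1.04, 0.997 to 1.08).

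The chromatin genes pointed both ways. Uhrf1 and Atad2 were higher, Chaf1b lay at 1.08 with an interval that held 1, and Hells, Nasp, Slbp and Cdca7 were lower, so that the sum stood at 554 CPM in IgG against 511 CPM in aPD-1 (0.923, 0.908 to 0.938). Hells and Uhrf1, which were among the leading coexpressed pairs within each library, thus lay on opposite sides of 1 between the libraries. Of the genes with E2F letters, Dtl, Uhrf1 and Clspn were among the highest ratios and Mcm7, Hells and Cdc6 among the lowest. Of the cyclin E genes, Ccne1 was higher and Ccne2 lay at 0.922 with an interval of 0.825 to 1.03.

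The comparison was repeated within mitosis ranges, since the share of cells in them differed, with 17.3% of IgG and 21.8% of aPD-1 cells in range 4 and 22.9% and 18.1% in range 5. The checkpoint and repair sum was above 1 in all 5 ranges, between 1.04 in range 5 and 1.38 in range 3, with 4 intervals above 1. Mybl2 was above 1 in all 5, at 1.47, 2.26, 2.20, 1.35 and 1.23, with 4 intervals above 1, so that its ratio was over 2 in ranges 2 and 3 and smaller in the cells highest in mitosis genes. Pcna was below 1 in all 5, from 0.64 to 0.83, and Nasp from 0.67 to 0.86, with all intervals below 1. The median ratio of all genes lay between 0.921 and 0.957 in these ranges.

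The licensing sum changed side across the mitosis ranges, at 1.0, 1.15, 0.96, 0.83 and 0.79, with an interval of 1.06 to 1.24 in range 2 and of 0.759 to 0.821 in range 5. The synthesis sum went through 0.84, 1.0, 1.07, 0.82 and 0.88. Ung changed side too, at 1.34, 1.68, 1.44, 0.93 and 0.70, with an interval of 1.34 to 2.11 in range 2 and of 0.574 to 0.846 in range 5. The lower licensing sum of the aPD-1 library was therefore found in the cells of ranges 4 and 5 and not in range 2. In the histone ranges the licensing ratio stood between 0.825 and 0.954, below 1 in each.

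**Figure D5:**
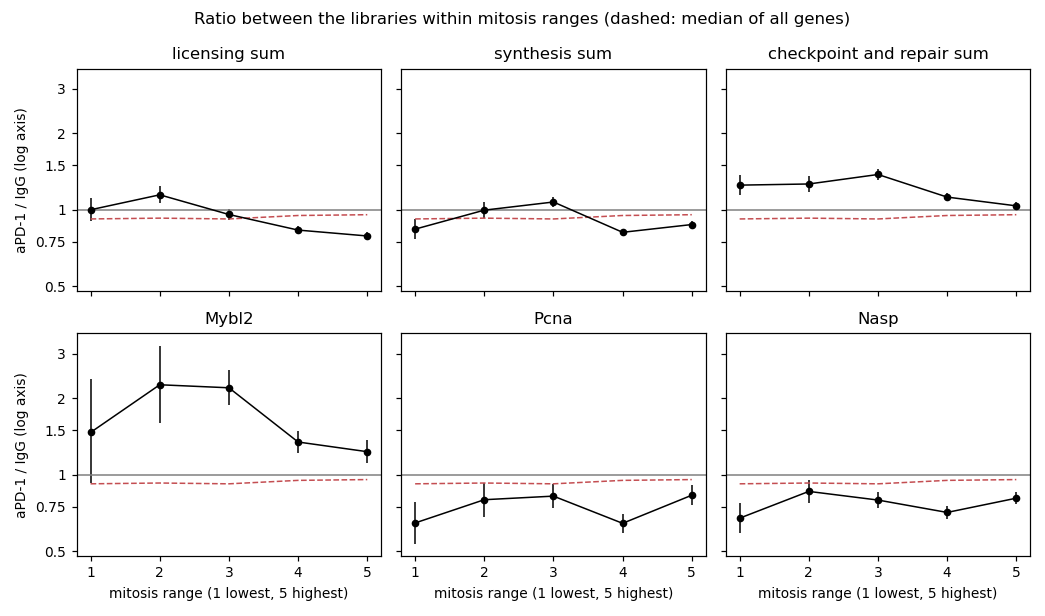
Ratio of aPD-1 over IgG (log axis) within each mitosis range for the licensing, synthesis and checkpoint and repair sums and for Mybl2, Pcna and Nasp, with exact conditional binomial 95% intervals and the median ratio of all genes in the range (dashed). Mybl2 and the checkpoint and repair sum lie above 1 in all 5 ranges, Pcna and Nasp below 1 in all 5, and the licensing sum goes from 1.15 in range 2 to 0.79 in range 5.

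A further 85 genes of replication and of G1 to S control, none of them among the 38, were read as a pathway list, of which 67 reached 10 CPM. Their median log2 ratio was -0.00 beside -0.10 for all genes, 8 of the 67 were higher by at least 25% (3.9% of all genes) and 5 lower by the same rule (17.2%). The highest was Cdkn1a, the cyclin kinase inhibitor p21, at 55.4 CPM in IgG against 85.3 CPM in aPD-1 (1.54, 1.47 to 1.61). E2f8, a repressor of the E2F family, stood at 8.26 and 12.2 CPM (1.47), Mcm10, a fork factor, at 8.80 and 12.1 CPM (1.38), E2f1, an activator of S phase genes, at 33.6 and 45.7 CPM (1.36) and Cdc25a, the phosphatase that activates cyclin kinases, at 15.8 and 21.4 CPM (1.36). The other 3 higher genes were Top2a, Dctpp1 and Wdhd1. Thus an inhibitor of the cycle and activators of S phase were both among the higher genes.

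The lowest of the pathway list was Cdkn1b, the kinase inhibitor p27, at 27.0 CPM in IgG against 19.2 CPM in aPD-1 (0.71, 0.66 to 0.77). Tonsl, which guards new histones at damaged forks, stood at 90.8 and 68.6 CPM (0.76), Pole2, a subunit of polymerase epsilon, at 12.1 and 9.23 CPM (0.76), Rrm2b, the p53-induced form of ribonucleotide reductase, at 14.8 and 11.7 CPM (0.79) and Rfc3, of the clamp loader, at 127.3 and 100.9 CPM (0.79). Cdkn1a and Cdkn1b, inhibitors of the same kinases, therefore differed in opposite directions between the libraries.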

How the data were processed

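The authors deposited raw, whole-number UMI counts for each gene in each barcode. Cell Ranger 3.0.2 made the matrices, per the file headers. Seurat 2.1.0 and the build mm10 appear in the submitters' processing notes, and no annotation release was stated. Matrices were read with Python 3.11.15, numpy 2.4.6, scipy 1.17.1 and pandas 2.3.3. Library totals were 52720076 (IgG) and 68385785 UMIs (aPD-1), of which kept cells held 49422640 and 61462778, and barcodes under 500 UMIs held 7.20% of the UMIs of aPD-1. Every matrix row names a gene, and 0 columns of other samples were present. UMIs were summed per library and divided by the library's sum over kept cells (CPM). Doublets were not removed. Ratios carry exact conditional binomial and levels exact Poisson 95% intervals, for counting error only (a normal interval on the log scale for the change in licensing per synthesis UMI), and log2 ratios a pseudocount of 1 CPM, which understates low genes. With 1 library per group no test was made and no p-value computed. Steps were checked on simulated counts.

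The members and lists were chosen with earlier results of these data known. All members are named; values by library in sentences of their own go to the 6 highest and 6 lowest ratios, the 3 highest and 3 lowest levels and every Mcm gene. Up to 5 higher and 5 lower pathway genes past the 25% threshold and the 10 genes of highest r with each sum are named, and other genes as markers. Of 50 mitosis symbols, 2 matched no row. Promoter letters are from RefSeq on GRCm38.p6 and gene positions from GENCODE M21. Alternatives changed the UMI floor, the mt- limit, the cells kept, the scaling, the pseudocount, the gene minimum, the thinning and the ranges.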

Additional observations from a re-analysis of the deposited data

Results flagged for a closer look

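Among the barcodes outside the kept cells, those of high depth held replication transcripts at a higher share of all UMIs than the kept cells. The shallower ones held them at a lower share of all UMIs. In barcodes of at least 5000 UMIs with over 10% of UMIs from mt- genes, the 38 genes summed to 2678 CPM in IgG (89 barcodes, interval 2565 to 2794) and to 2522 CPM in aPD-1 (81 barcodes, interval 2396 to 2653), against 1789 and 1773 CPM in the kept cells. These barcodes entered no comparison, and their medians were 7821 (IgG) and 6709 UMIs (aPD-1). With mt- UMIs left out of the denominator the values were 3079 and 2934 CPM. In barcodes of 500 to 5000 UMIs with over 10% mt- UMIs the 38 genes stood at 588 (IgG) and 798 CPM (aPD-1), and in those with at most 10% at 1250.3 (625 barcodes) and 1439 CPM (344 barcodes). With mt- UMIs left out of the denominator these became 1754 and 1804 CPM over 10% mt- UMIs, and 1284 and 1483 CPM at most 10%. The values of the kept cells given here have mt- UMIs in the denominator. No cause was tested.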

How the results depend on the processing

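No paired analysis was possible because each group is 1 library and the labels carry no replicate number. Depth limits single genes most: Cdc6, the lowest member, rests on 577 and 632 UMIs, and all intervals leave out the spread between cultures, which these data do not measure. A floor of 10000 UMIs, leaving out marker-positive cells and pseudocounts of 0.1 and 5 CPM each kept all 38 ratios inside their main intervals. The signs of 25 members held in every alternative run for them, and 13 changed at least once. The cause of the moves below was not tested.

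Counts past the 25% threshold were 7 higher and 0 lower at 5% mt- UMIs, and 8 and 2 without the 5% of cells with most UMIs. They were 10 and 0 without ribosomal and mt- genes in the denominator, and 9 and 0 after centring. Only 14 members reached a minimum of 50 CPM, and Mybl2 and Dtl were not among them. There the counts were 1 higher (3.63% of 2450 genes) and 2 lower (17.6%). Counted without an interval, they were 5 and 2 with cells weighted equally and 1 and 2 when standardised to one mix of ranges. In these settings the licensing ratio was 0.962 (5% mt-), 0.925 (most UMIs out), 0.968 (denominator), 0.965 (centred) and 0.877 (standardised), and 0.865 without the 10% of cells highest in Gsn, Lbp, Dpt and Dcn. The synthesis ratio was 0.969, 0.954, 0.987, 0.984, 0.872 and 0.890 in the same order. The median log2 ratio became 0.071 with the other denominator, 0.069 after centring and -0.13 at 50 CPM, where that of all genes taken off left -0.035.

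The licensing and synthesis r was 0.691 (IgG) and 0.649 (aPD-1) unthinned, 0.340 and 0.243 at 2000 UMIs, and 0.668 and 0.601 at 20000 UMIs (chosen after seeing the data). Less counting noise, and on UMIs without the log, it was 0.896 and 0.901. In IgG it was 0.440 by Spearman and 0.438 without the 5% of cells with most UMIs. The median pair r was 0.296 and 0.232 unthinned, 0.261 and 0.160 at 20000 UMIs and, in IgG, 0.0449 at 2000 UMIs.

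Top over lowest histone range, the members stood at 2.13 (IgG) and 2.03 (aPD-1) as reported, 1.53 and 1.70 with 3 ranges, 1.81 and 1.83 ranked after thinning, 1.96 and 1.98 without the 5% of cells with most UMIs, 2.28 and 2.37 without Hist1h2bc, Hist1h1c and Hist1h2ap (chosen after seeing the data), and in IgG 1.88 without cells high in Gsn, Lbp, Dpt and Dcn and 1.99 with ranges cut within each library. For mitosis ranges 4.59 and 4.23 became 4.13 and 3.77, 3.53 and 3.15, and 4.35 and 4.08 in the first 3 of these settings, and 4.43 in IgG with ranges within each library. The change in licensing per synthesis UMI was 0.800 and 0.741 with 3 ranges, and 0.791 in IgG without the 5% of cells with most UMIs.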
